A study of Homo sapiens with 10 samples.

Results

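Laminins, the proteins that tie them into basement membranes, and the integrins that cells use to hold on to them were followed through human thyroid organoid differentiation. Genes were taken by symbol: every laminin α, β or γ chain, every integrin α or β chain, and the linker proteins NID1, NID2, HSPG2 and AGRN. The rule found 42 genes among the 28265 gene symbols counted, comprising 12 laminin chains (5 α, 4 β and 3 γ), 18 integrin α chains, 8 integrin β chains and 4 linkers. A single gene, ITGAX, with at most 7 counts in a library, missed the minimum of 5 counts in 2 libraries, and the other 41 were tested.

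A laminin is a cross-shaped trimer of 1 α, 1 β and 1 γ chain that polymerizes on the cell surface and starts a basement membrane. Nidogens and perlecan bridge the laminin sheet to the collagen IV network, and agrin ties it to receptors such as dystroglycan. Integrins are αβ heterodimers in the cell membrane that bind laminins, collagens or proteins with an RGD motif and connect them to actin through talin and kindlin. In the thyroid, each follicle is a closed epithelial sphere that rests on a basement membrane.

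RNA was sequenced from NKX2-1-GFP+ cells sorted from organoids at days 16, 23, 31, 38 and 45, with 2 libraries a day (written D16 to D45 beside values). All libraries came from the hESC line ESIBIe003-A-6, which carries GFP at an NKX2-1 allele and a lentiviral, doxycycline-inducible NKX2-1 and PAX8 cassette. All cells had been through embryoid bodies, Matrigel drops, activin A and doxycycline, and Matrigel is itself an exogenous, laminin-rich matrix that counts of human RNA do not report. Day 16 cells had left doxycycline for basal medium by the study's schedule, although their labels name cAMP. Day 23 and day 31 cells are labelled with cAMP (8-br-cAMP), although the schedule exchanges cAMP for TSH and dexamethasone shortly before day 31, day 38 cells with TSH and dexamethasone, and day 45 cells with TSH and SB, by the methods SB431542, an inhibitor of the TGFβ receptor kinase, with dexamethasone kept on by the study's schedule. Day and medium changed together, so their parts in a difference cannot be told apart. Organoids were dissociated with enzymes, wells were pooled and sorted cells went straight into lysis buffer. In such bulk samples, fewer cells of a type and less RNA per cell cannot be told apart.

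Counted totals ran from 7247268 at day 45 replicate 1 to 10333933 at day 38 replicate 1, and 3 counts, the smallest signal taken as above 0, equalled 0.290 to 0.414 CPM before TMM scaling (CPM gives a gene's counts relative to those of its library, and is TMM-scaled everywhere else). The 42 genes together made up 0.394 to 0.497% of each library. NKX2-1, the gene whose GFP allele served for sorting, was present in every library, with 400 to 1479 counts. The epithelial gene EPCAM was present with 2145 to 3596. Collagen genes that mark fibroblasts were present as well, led by COL3A1 with 2441 counts in its lowest library, so genes that mark mesenchyme were counted in every sorted library.

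Most of these genes changed over the time course. Of the 41, 30 differed on any day at an adjusted p under 0.05 (edgeR, quasi-likelihood F, adjusted by Benjamini-Hochberg over 21014 genes), where 36.3% of all genes tested did. At day 23 against day 16, 12 of the 41 passed, 8 higher and 4 lower, beside 10.9% of all genes (5.6% higher and 5.33% lower). At day 31 against day 23, 4 passed, all higher, beside 2.25% of all genes (1.58% higher and 0.666% lower). At day 38 against day 31, 17 passed, 12 higher and 5 lower, beside 15.0% of all genes (8.8% higher and 6.23% lower). At day 45 against day 38, 6 passed, 3 higher and 3 lower, beside 11.2% of all genes (4.85% higher and 6.35% lower). From day 16 to day 45, 21 passed, 16 higher and 5 lower, beside 24.6% of all genes (12.9% higher and 11.7% lower). The counts at day 45 against 38 and against 16 include ITGAM, which reached the minimum count only through the day 45 libraries, where it was high.

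The median log2 fold change of the 41 genes stayed small in the same comparisons. It was -0.14, 0.07, 0.18 and 0.09 in the 4 consecutive steps and 0.29 from day 16 to day 45, beside medians of -0.02 to 0.00 over all genes. Among genes with more than 3 counts on both days, the largest consecutive steps that passed were ITGB3 and ITGA4 at day 38 and LAMB3 at day 23. Consecutive comparisons share the libraries of the day between them. Leaving out 1 library at a time took the day 31 count from 4 to between 1 and 6 (1 without any of the day 23 or day 31 libraries), the day 38 count from 17 to between 10 and 18 (10 or 11 without any of the day 31 or day 38 libraries), and the day 45 count from 6 to between 3 and 9 (3 without day 45 replicate 2).

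**Figure D1:**
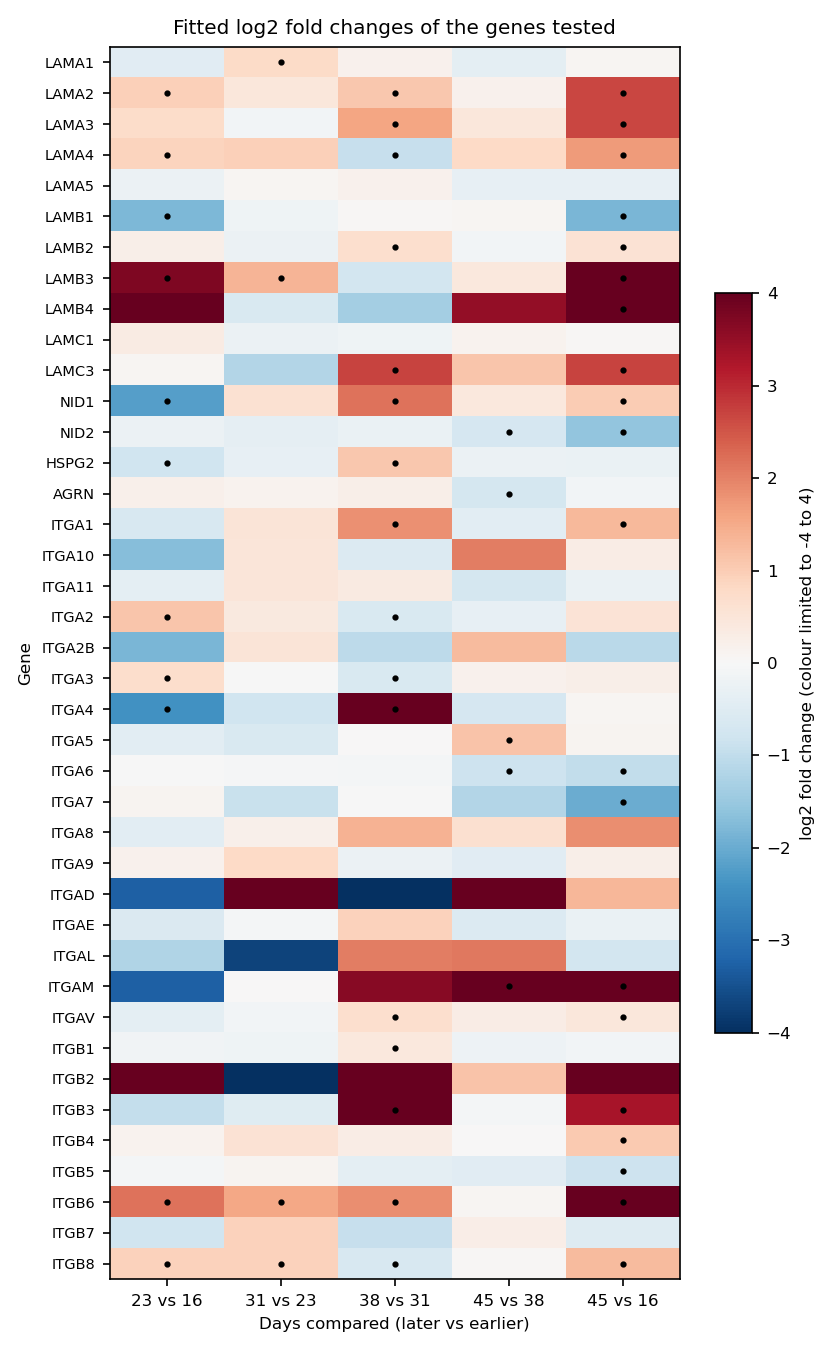
Fitted log2 fold changes (colour, limited to -4 to 4) of 40 genes tested (rows) in the 4 consecutive steps and from day 16 to day 45 (columns), with a dot where the adjusted p was under 0.05. Dots are most frequent at day 38 against 31 and at day 45 against 16, and the strong colours without a dot belong to genes with few counts, such as ITGB2 and ITGAD, whose fitted values depend on the prior count.

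Among the laminin β chains, LAMB1 fell and LAMB3 rose at day 23, and LAMB2 rose at day 38. LAMB1 (chr7:107923799-108003213, GRCh38, minus strand), the β chain of the laminins of early embryonic basement membranes, had 4803 and 5768 counts on D16, 1679 and 1675 on D23, 1719 and 1389 on D31, 1647 and 1479 on D38, and 1285 and 1694 on D45. Both day 16 libraries stood above all others, and the later days lay close together. LAMB1 fell 3.49-fold by day 23 (log2 fold change -1.80 ± 0.13 SE, adjusted p = 1.53e-12). The drop held in all 10 fits with a library left out, and at day 45 LAMB1 was still 3.55-fold under day 16.

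LAMB3 (chr1:209614870-209652425, minus strand), the β3 chain of the epithelial laminin that anchors hemidesmosomes, had 25 and 0 counts on D16, 175 and 196 on D23, 506 and 485 on D31, 322 and 261 on D38, and 348 and 339 on D45. The day 16 libraries were the lowest and those of day 31 the highest. LAMB3 rose at day 23 (log2 fold change 3.72 ± 0.48, adjusted p = 6.64e-07), from 1.59 to 20.9 CPM on average. The size of that step rests on few reads at day 16: the estimate ran from 2.71 to 10.52 with a library left out, though it passed each time. A further rise at day 31 (1.37 ± 0.36, adjusted p = 0.033) was lost under DESeq2 and without any library of days 23 and 31, with a largest adjusted p of 0.262 among the latter.

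LAMB2, the β2 chain, which replaces β1 in many mature basement membranes, had 1277 and 1063 counts on D16, 1668 and 1399 on D23, 1368 and 1332 on D31, 2172 and 2041 on D38, and 1468 and 2029 on D45. It rose 1.60-fold at day 38 (0.68 ± 0.14, adjusted p = 5.44e-04) and was 1.49-fold over day 16 on D45, both in all 10 fits with a library left out. LAMB4, a β chain of which little is known, had at most 2 counts in either day 16 library, 1 and 49 on D23, 29 and 6 on D31, 12 and 1 on D38, and 73 and 55 on D45. The replicates of days 23, 31 and 38 disagreed widely, and the day 45 libraries were the 2 highest. Its 128 counts at day 45 against 2 on D16 made a ratio of 63.9 with a 95% exact counting interval of 17.3 to 533 (adjusted p = 0.00301).

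Levels of different chains were set side by side as CPM per kb of merged exons, and each chain's share was taken within its class. LAMB1 held 62.1% ± 6.5 (SD, n = 2) of the β chain total on D16, 25.3% ± 1.4 on D23, 21.4% ± 2.0 on D31, 18.5% ± 0.2 on D38 and 19.1% ± 0.5 on D45. LAMB2 held 37.3% ± 5.7 on D16 and 62.4% ± 4.3 on D23, and by this length was the leading β chain on every later day. Between D16 and D23 the mean level of LAMB2 went only from 146 to 172 CPM, while that of LAMB1 went from 660 to 189. LAMB3 held 0.598% on D16, 11.2% on D23, 27.4% on D31, 13.8% on D38 and 18.0% on D45. With the length of the longest transcript in place of merged exons, LAMB1 held 78.8% on D16 and 35.7% on D45, and LAMB2 49.4% on D45, while LAMB2 was within its spread of LAMB1 on D23 (47.5% ± 3.8) and on D31 (40.6% ± 2.4 against 39.3% ± 2.9).

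**Figure D2:**
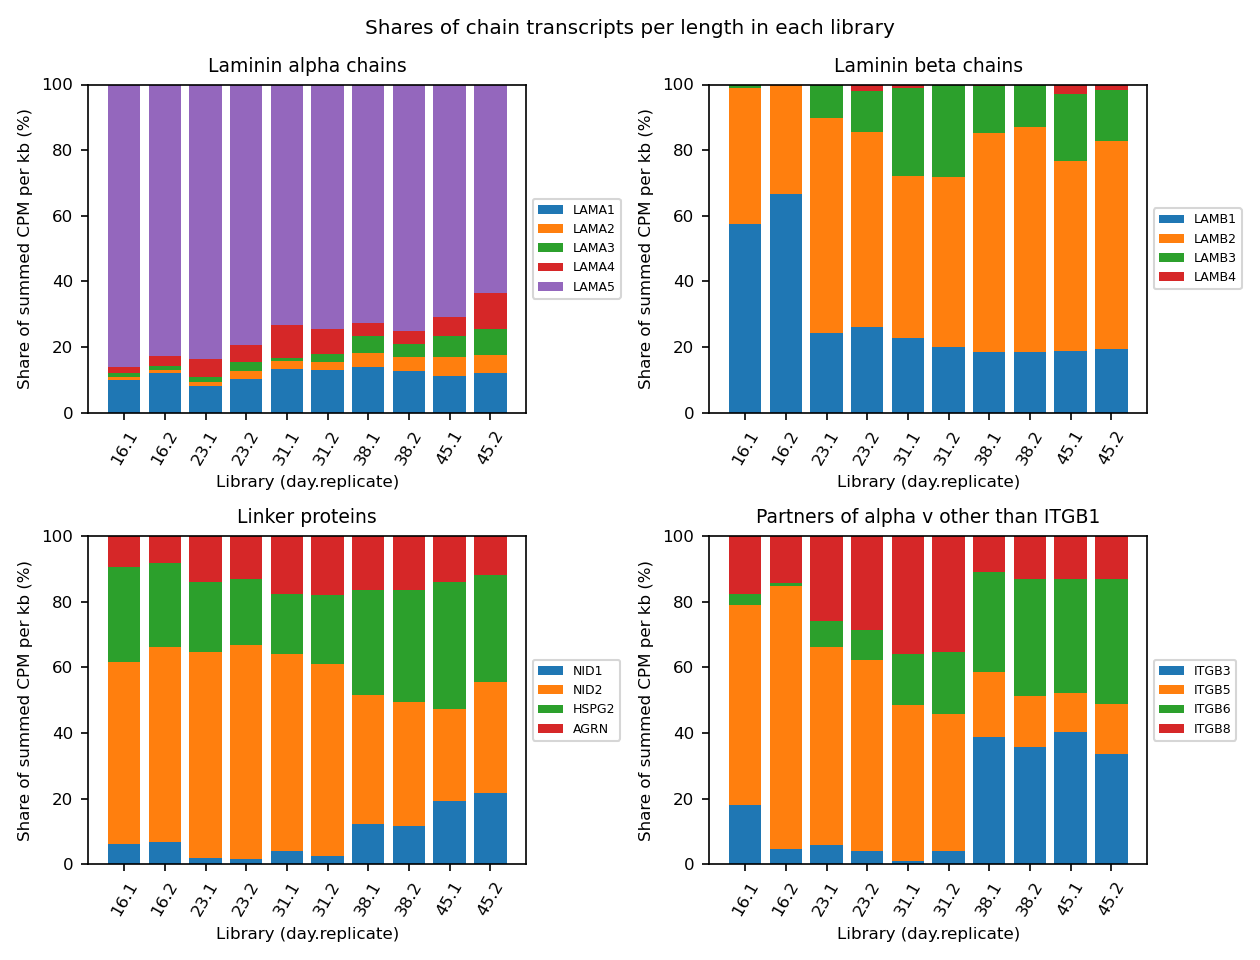
Share of each chain (percent of the summed CPM per kb of merged exons within a class) in each of the 10 libraries, labelled by day and replicate. LAMB1 fills most of the β chain bar at day 16 only, LAMA5 leads the α chains throughout, and NID2 narrows among the linkers. ITGB3 and ITGB6 widen among the αv partners other than ITGB1 at days 38 and 45.

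The stretches before 2 laminin start sites are shown because LAMB3 and LAMA3 encode chains of the hemidesmosomal laminin that gained over the time course, and because each stretch held motif letters. They are the 150 bases before the RefSeq start (GRCh38.p14), 5′ to 3′ on the gene's strand, with the motif matches in capitals. The LAMB3 stretch is chr1:209652426-209652575 on the minus strand, where the capitals mark TGACG, the core of the cAMP response element.
LAMB3: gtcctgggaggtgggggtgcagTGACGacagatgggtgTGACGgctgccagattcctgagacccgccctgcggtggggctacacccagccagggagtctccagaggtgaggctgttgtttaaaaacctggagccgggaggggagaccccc
The LAMA3 stretch is chr18:23872870-23873019 on the plus strand, before the start of the shorter LAMA3 transcript and inside the span of the longer one. Its capitals mark TGANTCA, a looser form of the AP-1 motif that allows any base in the middle.
LAMA3: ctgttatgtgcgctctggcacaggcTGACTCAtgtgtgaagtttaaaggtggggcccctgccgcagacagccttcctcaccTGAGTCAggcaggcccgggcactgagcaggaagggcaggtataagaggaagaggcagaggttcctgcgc
RefSeq windows from 250 bases before to 50 after the start were matched for 29 of the 42 genes. TGACG, on either strand, stood in 6 of the 29 (ITGA11, ITGA6, ITGB1, LAMA4, LAMA5 and LAMB3) and in 25.0% of all 27305 windows. The full element TGACGTCA stood in 0 of the 29 and in 1.98% of all windows. TGANTCA stood in 2 of the 29 (LAMA3 and ITGA5) and in 7.76% of all windows, the glucocorticoid motif (GNACA and TGTNC, 3 bases apart) in 0 and 0.388%, the SMAD palindrome GTCTAGAC in 0 and 0.201%, and the TATA letters TATAAA in 1 (ITGA6) and 12.0%. These matches are letters in a window and no measurement of binding.

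Among the laminin α chains, LAMA5 was the most abundant per length on every day and did not pass any comparison. LAMA5, the α chain of most adult epithelial basement membranes, ranged from 2888 to 4343 counts, with an adjusted p of 0.144 over all days. It held 84.3% ± 2.5 (SD, n = 2) of the α chain total on D16 and 67.2% ± 5.1 on D45.

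The α chains that gained were those present at low levels at the start. LAMA3, the α chain that joins LAMB3 in the hemidesmosomal laminin, had 56 and 47 counts on D16, 69 and 122 on D23, 62 and 118 on D31, 301 and 231 on D38, and 270 and 389 on D45. Every library of days 38 and 45 stood above every earlier one. LAMA3 rose 2.97-fold at day 38 (log2 fold change 1.57 ± 0.36, adjusted p = 0.00161), a call lost without day 31 replicate 1 (adjusted p = 0.0876), and was 6.33-fold over day 16 on D45 (adjusted p = 7.89e-07).

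LAMA2, the α chain of muscle and nerve basement membranes and of mesenchymal cells, had 75 and 69 counts on D16, 110 and 197 on D23, 211 and 225 on D31, 481 and 429 on D38, and 436 and 472 on D45. In CPM its libraries climbed from day to day, with overlap only between days 23 and 31 and between days 38 and 45. LAMA2 was 6.37-fold over day 16 on D45 (2.67 ± 0.29, adjusted p = 5.40e-09), and that call held in all 10 fits with a library left out. Its rise at day 23 (0.95 ± 0.29, adjusted p = 0.0294) was lost without either day 16 library or day 23 replicate 2, and its rise at day 38 (1.09 ± 0.27, adjusted p = 0.00372) without day 31 replicate 1.

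LAMA4, the α chain of endothelial and mesenchymal basement membranes, had 80 and 107 counts on D16, 203 and 178 on D23, 431 and 335 on D31, 203 and 186 on D38, and 194 and 432 on D45. It peaked at day 31 and its day 45 replicates were far apart (37.7 ± 13.5 CPM, SD, n = 2). From day 16 to day 45 LAMA4 rose 3.24-fold (1.69 ± 0.29, adjusted p = 2.67e-05) in all 10 fits with a library left out. Its rise at day 23 (0.88 ± 0.29, adjusted p = 0.0486) passed in 2 of those 10 fits, being lost without any of the libraries of days 16 to 38, and its fall at day 38 (-0.93 ± 0.28, adjusted p = 0.0194) in 6, being lost without any library of days 31 and 38.

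LAMA1, the α chain of the first embryonic laminin and of Matrigel's own mouse laminin, had 560 and 527 counts on D16, 396 and 478 on D23, 779 and 749 on D31, 926 and 768 on D38, and 507 and 652 on D45. Day 23 was lowest and days 31 and 38 highest. It rose 1.69-fold at day 31 (0.76 ± 0.18, adjusted p = 0.0114), which was lost without day 23 replicate 1 or either day 31 library, and day 45 was close to day 16 (log2 fold change 0.09 ± 0.18, adjusted p = 0.776).

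LAMC1, the γ chain of nearly all laminins, had 74.8 CPM per kb of merged exons over all days, the highest of the set, although by the longest transcript ITGB1 (80.4) and LAMC1 (79.7) were close. Its counts ran from 4073 to 6721, and it passed the test over all days (adjusted p = 0.0254) without passing any of the 5 comparisons, the nearest being day 23 against 16 (0.32 ± 0.11, adjusted p = 0.0543).

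LAMC3, a γ chain found in a few tissues such as brain and retina, had 20 and 13 counts on D16, 23 and 16 on D23, 0 and 17 on D31, 87 and 28 on D38, and 104 and 111 on D45. Only the day 45 pair was both high and close together. Its rise from day 16 to day 45 (2.71 ± 0.83, adjusted p = 0.0131) was lost without day 16 replicate 2 or day 45 replicate 1 (largest adjusted p 0.0978), and that of day 38 (2.70 ± 0.86, adjusted p = 0.0288) without day 31 replicate 1, day 38 replicate 1 or day 45 replicate 1.

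LAMB3 and LAMA3, chains of the hemidesmosomal laminin, thus did not move in step at every stage. LAMB3 rose at day 23, when LAMA3 had a log2 fold change of 0.74 ± 0.37 (adjusted p = 0.229), and LAMA3 rose at day 38, when LAMB3 went from 54.1 to 32.6 CPM on average with a log2 fold change of -0.73 ± 0.36 (adjusted p = 0.187). No test of the difference between the chains was made.

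**Figure D3:**
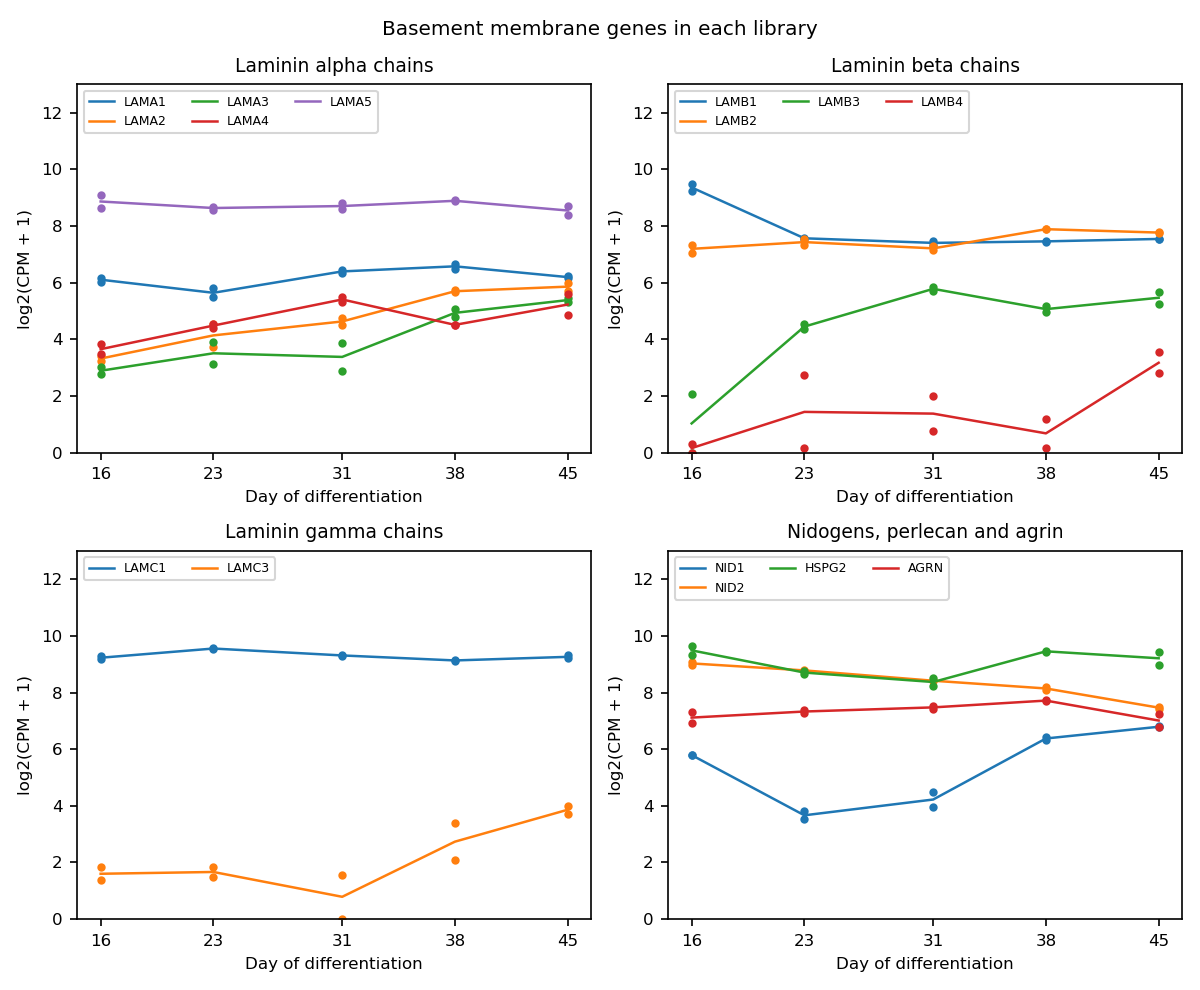
Level of laminin chains, the nidogens, perlecan (HSPG2) and agrin, as log2 of CPM plus 1, against day of differentiation, with a point for each of 2 libraries a day and a line through their mean. LAMB1 drops after day 16 while LAMB3 climbs, and NID1 and HSPG2 dip at days 23 and 31 and return at day 38.

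Of the linker proteins, NID1 and HSPG2 dipped and returned, NID2 declined and AGRN fell at the last step. NID1 (chr1:235975830-236065109, minus strand), nidogen-1, had 429 and 442 counts on D16, 117 and 92 on D23, 211 and 124 on D31, 783 and 686 on D38, and 768 and 991 on D45. Days 23 and 31 were low, and days 38 and 45 were above day 16. NID1 fell 4.63-fold at day 23 (log2 fold change -2.21 ± 0.22, adjusted p = 5.25e-09), rose 4.55-fold at day 38 (2.19 ± 0.22, adjusted p = 1.24e-09) and was 2.02-fold over day 16 on D45 (adjusted p = 2.13e-04), each in all 10 fits with a library left out.

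HSPG2 (chr1:21822244-21937310, minus strand), the heparan sulfate proteoglycan perlecan, had 6357 and 5199 counts on D16, 3890 and 3524 on D23, 2961 and 3097 on D31, 6377 and 6141 on D38, and 4764 and 4636 on D45. Days 23 and 31 were again low, and the libraries of days 38 and 45 were not all above those of day 16. HSPG2 fell 1.73-fold at day 23 (-0.79 ± 0.14, adjusted p = 7.16e-05) and rose 2.12-fold at day 38 (1.08 ± 0.14, adjusted p = 2.12e-07), again in all 10 fits. LDLRAD2 on the opposite strand covers 11.7% of its exon bases, and reads of the overlap cannot be assigned without the strand setting of the counting.

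NID2 (chr14:52004809-52069059, minus strand), nidogen-2, had 4229 and 4123 counts on D16, 3933 and 3875 on D23, 3298 and 2963 on D31, 2691 and 2351 on D38, and 1186 and 1647 on D45. The libraries of each day lay under those of the day before. NID2 was 2.97-fold under day 16 on D45 (-1.57 ± 0.12, adjusted p = 1.71e-12), of which the last step, from day 38, passed by itself (-0.68 ± 0.12, adjusted p = 1.02e-04). RTRAF on the opposite strand covers 30.7% of its exon bases, so its level is uncertain.

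Per length, NID2 held 57.5% ± 2.6 (SD, n = 2) of the 4 linkers at day 16 and 30.9% ± 4.1 on D45, while NID1 went from 6.43% ± 0.54 to 20.6% ± 1.7 with a low of 1.82% ± 0.24 on D23. AGRN, the proteoglycan agrin, had 1249 and 972 counts on D16, 1509 and 1339 on D23, 1681 and 1567 on D31, 1955 and 1783 on D38, and 1032 and 1003 on D45. Its mean was highest at day 38 with no earlier step that passed, and it fell 1.62-fold at day 45 (-0.69 ± 0.15, adjusted p = 0.00182), a call lost without day 45 replicate 2 (adjusted p = 0.105).

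Collagen IV, the other network of the basement membrane, was not uniform over its chains, and the COL4A1 and COL4A2 chains dipped and returned. COL4A1 had 982 and 1023 counts on D16, 521 and 474 on D23, 505 and 413 on D31, 3462 and 3279 on D38, and 1630 and 2109 on D45. COL4A1 fell at day 23 (-1.16 ± 0.14, adjusted p = 1.60e-07) and rose at day 38 (2.92 ± 0.15, adjusted p = 2.96e-17), and COL4A2 did the same (-1.51 ± 0.15, then 2.76 ± 0.16). COL4A6 also fell at day 23 but did not return, with 516 and 379 counts on D16, 237 and 228 on D38 and 135 and 117 on D45 (-1.80 ± 0.28 at day 45 against 16, adjusted p = 5.19e-06), and COL4A5 was lowest at day 45 (-0.59 ± 0.12 against day 16). Of 20 other basement membrane genes, listed from general knowledge, 2 were higher and 10 lower at day 23, 1 and 2 on D31, 7 and 2 on D38, and 1 and 9 on D45, beside 10.9, 2.25, 15.0 and 11.2% of all genes called in either direction. COL15A1, a collagen of the outer side of basement membranes, rose at day 38 (3.47 ± 0.46, adjusted p = 7.68e-07), from 22 and 35 counts to 311 and 314. The Fraser complex genes FREM1 (-1.24 ± 0.20) and FRAS1 (-1.06 ± 0.14), which join epithelium to mesenchyme in embryos, and the peroxidase PXDN (-0.91 ± 0.12), which cross-links collagen IV, fell at day 45. The median log2 fold change of the 20 was -0.60 on D23, 0.83 on D38 and -0.60 on D45, beside -0.02, 0.00 and -0.02 over all genes. Without day 23 replicate 1 or 2 the day 23 count of 12 became 6 or 7, and without day 23 replicate 1 the day 31 count of 3 became 1.

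Markers of other cell types moved at the same step. The 8 fibroblast markers summed to 945 and 1168 CPM on D16, 1692 and 1687 on D23, 1511 and 1782 on D31, 4285 and 4516 on D38, and 4521 and 3623 on D45. COL3A1 was the most abundant of them and all 8 were detected. At day 38 against 31, 4 of the 8 rose and 1 fell, with COL1A1 going from 3187 and 2737 counts to 9717 and 9589. The 6 cardiovascular markers, led by MYH6, summed to 32.1 and 28.9 CPM on D31 and 254 and 234 on D38, with 5 of the 6 rising. The 6 endothelial markers summed to 59.0 and 56.7 CPM on D31 and 21.6 and 25.3 on D38, with 2 falling and none rising. The sums of the 5 epithelial markers were 1756 and 1865 CPM on D31 and 1750 and 1510 on D38, with 2 of the 5 falling and none rising. These were the keratins KRT18 (-1.07 ± 0.13, adjusted p = 7.67e-08) and KRT8 (-0.48 ± 0.12, adjusted p = 0.00318, lost without day 31 replicate 2 or day 38 replicate 2), while CDH1, EPCAM and KRT19 did not pass (0.16 ± 0.12, 0.17 ± 0.14 and 0.19 ± 0.15). The part of fibroblasts and cardiovascular cells in the day 38 changes of NID1, HSPG2, the collagens, LAMA2, ITGA1, ITGA4 and ITGB3, and that of endothelial cells in the fall of LAMA4, was not tested, nor was that of epithelial cells in any of these.

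**Figure D4:**
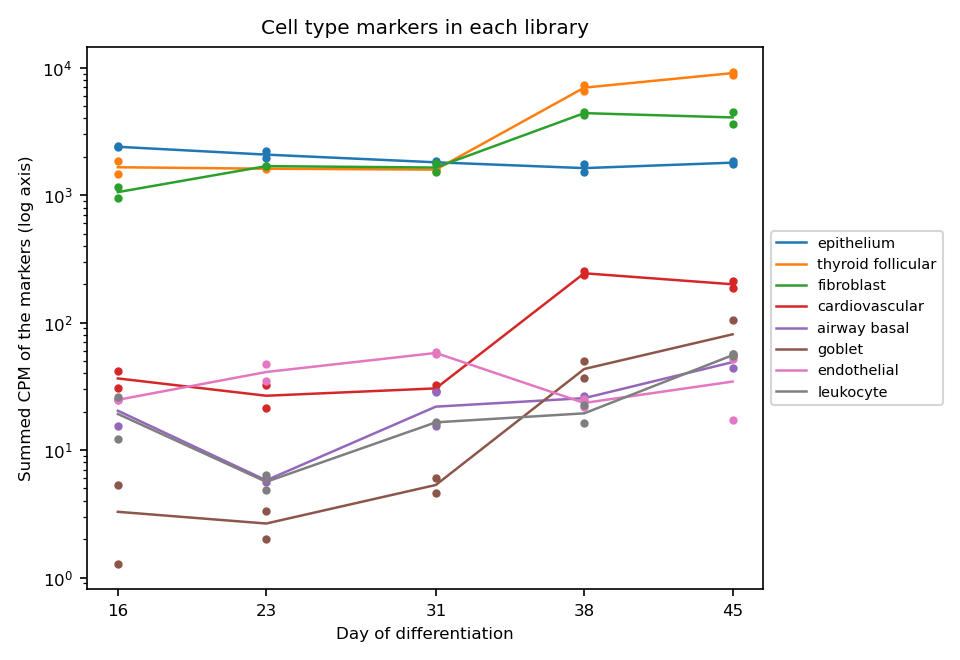
Summed CPM (log axis) of 8 lists of cell type markers against day of differentiation, with a point for each of 2 libraries a day and a line through their mean. Fibroblast, cardiovascular, goblet and thyroid follicular sums are higher at day 38 than at day 31, while the epithelial sum stays between 1510 and 2414 CPM.

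Among the integrin α chains that bind laminin, ITGA3 and ITGA6 carried most of the transcripts. ITGA6, which pairs with ITGB1 or with ITGB4 in hemidesmosomes, had 994 and 1122 counts on D16, 1187 and 1115 on D23, 1227 and 1077 on D31, 1156 and 977 on D38, and 377 and 727 on D45. The first 4 days lay close together and both day 45 libraries were lower. ITGA6 fell 1.77-fold at day 45 (log2 fold change -0.83 ± 0.16, adjusted p = 4.38e-04) and was 1.96-fold under day 16 (adjusted p = 1.58e-05), in all 10 fits with a library left out.

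ITGA3, the epithelial receptor for laminins with α3 or α5 chains, had 733 and 551 counts on D16, 1206 and 1137 on D23, 1109 and 1269 on D31, 794 and 718 on D38, and 594 and 954 on D45. It was high at days 23 and 31 and lower on either side. ITGA3 rose 1.64-fold at day 23 (0.71 ± 0.17, adjusted p = 0.00386), a call lost without day 16 replicate 2, and fell 1.54-fold at day 38 (-0.62 ± 0.17, adjusted p = 0.00855), a call lost without day 31 replicate 2 or either day 38 library.

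ITGA7, known from muscle, had 161 and 107 counts on D16, 160 and 161 on D23, 84 and 94 on D31, 81 and 89 on D38, and 26 and 42 on D45. It was lowest at day 45, 3.99-fold under day 16 (SE 0.43 on the log2 scale, adjusted p = 5.03e-04), in all 10 fits. Per kb of merged exons, ITGA6 held 66.4% ± 6.7 and ITGA3 27.4% ± 5.1 of these 3 chains at day 16 (SD, n = 2), and 49.3% ± 3.2 and 48.4% ± 3.1 on D45. By the longest transcript ITGA3 already exceeded ITGA6 at day 23 (47.5 against 43.9%), so the order of the 2 chains at days 23, 31 and 45 depends on the length used.

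ITGB4, the hemidesmosomal β chain that pairs with ITGA6, had 97 and 54 counts on D16, 104 and 81 on D23, 172 and 118 on D31, 191 and 152 on D38, and 138 and 173 on D45. It was higher at day 45 than at day 16 (1.04 ± 0.37, adjusted p = 0.0384) in 5 of 10 fits with a library left out, being lost without day 16 replicate 2 or any library of days 38 and 45, and under scaling by library size alone. ITGB1, the common partner of most α chains here, had 3224 and 4460 counts on D16, 3968 and 3779 on D23, 4077 and 3027 on D31, 4853 and 4319 on D38, and 3011 and 4111 on D45. Its rise at day 38 (0.42 ± 0.13, adjusted p = 0.0234) was the smallest that passed in that comparison. Scaling by library size alone, which moved the median of all genes by -0.20 there, reduced it to 0.20 and ended the call, as did leaving out day 31 replicate 2 or either day 38 library.

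Other laminin receptors and their partners changed in both directions. Of 22 such genes, 3 were higher and 1 lower at day 23, 1 and 0 on D31, 3 and 2 on D38, 1 and 6 on D45, and 5 and 7 from day 16 to day 45. In either direction these were 18.2, 4.55, 22.7, 31.8 and 54.5% of the list, beside 10.9, 2.25, 15.0, 11.2 and 24.6% of all genes. SDC2, a syndecan, fell at day 23 (-0.81 ± 0.18) and rose at day 38 (1.13 ± 0.18, adjusted p = 1.30e-05). DMD, the dystrophin that links dystroglycan to actin (-0.92 ± 0.14), SGCB of the sarcoglycan complex (-0.95 ± 0.18) and B4GAT1, which helps build the laminin-binding sugar of dystroglycan (-1.04 ± 0.31), fell at day 45. SDC1, the main syndecan of epithelia, rose from day 16 to day 45 (2.60 ± 0.46, adjusted p = 3.74e-05). The count at day 23 (4) was 1 without day 23 replicate 2 and 2 without day 16 replicate 2 or day 23 replicate 1, that at day 31 (1) was 0 without day 23 replicate 1 or either day 31 library, that at day 38 (5) was 1 or 2 without any library of days 31 and 38, and that at day 45 (7) was 2 without day 38 replicate 2 and 3 without day 45 replicate 1.

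The β chains other than ITGB1 that pair with αv changed places over the time course. ITGAV, which with ITGB3, ITGB5, ITGB6 or ITGB8 binds RGD proteins and latent TGFβ, had 2223 and 2997 counts on D16, 2127 and 2281 on D23, 2441 and 1769 on D31, 3174 and 3233 on D38, and 2883 and 4330 on D45. It rose 1.58-fold at day 38 (log2 fold change 0.66 ± 0.14, adjusted p = 6.10e-04), which was lost by a small margin without day 31 replicate 2 (adjusted p = 0.0553). The rise from day 16 to day 45 (0.45 ± 0.14, adjusted p = 0.0117) was lost without day 16 replicate 1 or day 45 replicate 2.

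ITGB6 (chr2:160099667-160200313, minus strand), an epithelial β chain whose αv dimer activates TGFβ, had 12 and 4 counts on D16, 43 and 39 on D23, 121 and 127 on D31, 436 and 445 on D38, and 331 and 519 on D45. Each day up to day 38 lay above the one before with no overlap. ITGB6 passed in 3 consecutive steps, with log2 fold changes of 2.19 ± 0.44 (adjusted p = 6.36e-04), 1.55 ± 0.33 (adjusted p = 0.00451) and 1.86 ± 0.30 (adjusted p = 1.86e-05). Of these, the day 31 step was lost without either day 23 library or day 31 replicate 2 (largest adjusted p 0.0696), and the steps at days 23 and 31 in a fit of the 4 libraries compared. From day 16 to day 45 it rose from 1.01 to 52.4 CPM, a fold of 51.6 (5.69 ± 0.40, adjusted p = 1.71e-13).

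ITGB3 (chr17:47253827-47313743, plus strand), the β chain of the vitronectin receptor, had 79 and 22 counts on D16, 38 and 20 on D23, 10 and 32 on D31, 656 and 524 on D38, and 449 and 539 on D45. The 4 late libraries were all at least 5-fold above the highest early one in counts. ITGB3 rose 28.2-fold at day 38 (4.82 ± 0.45, adjusted p = 2.72e-10), and with a library left out the estimate ran from 4.14 to 5.98 and passed each time. ITGA2B, its platelet partner, had 19 to 126 counts and no comparison that passed, and the 4 megakaryocyte markers summed to at most 1.16 CPM.

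ITGB8, which with αv also activates TGFβ, had 174 and 153 counts on D16, 378 and 311 on D23, 737 and 618 on D31, 417 and 423 on D38, and 322 and 470 on D45. It peaked at day 31 and stayed above day 16, 2.40-fold at day 45 (1.26 ± 0.22, adjusted p = 2.83e-05). The steps at day 23 (0.92 ± 0.22), day 31 (0.93 ± 0.21) and day 38 (-0.64 ± 0.21) passed but were lost, respectively, without day 23 replicate 1, without day 23 replicate 2 or either day 31 library, and without any library of days 31 and 38. ITGB5, a widely expressed vitronectin receptor chain, had 257 and 366 counts on D16, 377 and 272 on D23, 416 and 313 on D31, 321 and 216 on D38, and 127 and 234 on D45. Its fall from day 16 to day 45 (-0.81 ± 0.27, adjusted p = 0.0218) was lost without day 16 replicate 2 or day 45 replicate 1. Over all days ITGB5, ITGB4 and ITGB1 did not pass (adjusted p = 0.057, 0.0532 and 0.0855).

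Among these 4 partners per length, ITGB5 held 70.6% ± 13.4 (SD, n = 2) on D16, 44.5% ± 4.1 on D31 and 13.6% ± 2.4 on D45. ITGB6 went from 2.10% ± 1.58 through 17.3% ± 2.5 to 36.5% ± 2.2, and ITGB3 from 11.2% ± 9.4 through 2.57% ± 2.10 to 36.8% ± 4.7 on the same days. ITGB8 was at 35.7% ± 0.5 on D31 and 13.1% ± 0.1 on D45. Of these 4, ITGB5 led up to day 31, and ITGB3 and ITGB6 did not differ beyond their spread at days 38 and 45. ITGB1, which also pairs with αv, was left out of these shares, though its level per length exceeded each of the 4 on every day. Per kb of merged exons, ITGB1 had 32.9 CPM on D16 beside 5.96 for ITGB5. On D45 it had 30.4 beside 9.08 for ITGB3 and 9.05 for ITGB6. This grouping was chosen after values were seen, and by the longest transcript ITGB5 (43.5% ± 3.6) and ITGB8 (40.2% ± 0.2) did not differ beyond their spread at day 31.

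**Figure D5:**
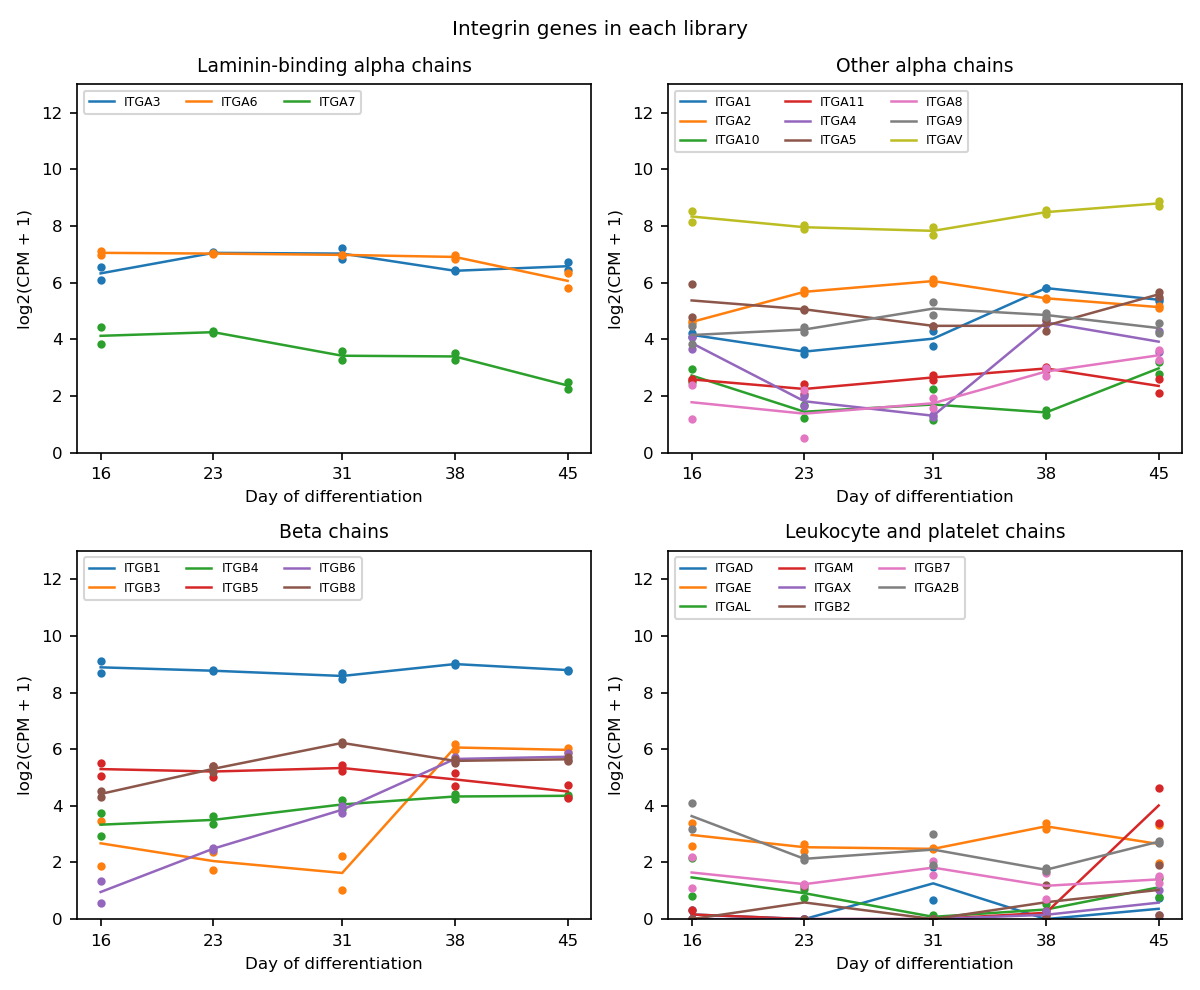
Level of each integrin gene, as log2 of CPM plus 1, against day of differentiation, with a point for each of 2 libraries a day and a line through their mean. ITGB3, ITGA4 and ITGA1 step up at day 38, ITGB6 climbs from day 16 to day 38, and ITGAM leaves the floor at day 45 only.

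Ligands of these integrins changed in both directions. Of 19 listed, 4 were higher and 4 lower at day 23, 3 and 1 on D31, 8 and 4 on D38, and 3 and 6 on D45. In either direction these were 42.1, 21.1, 63.2 and 47.4% of the list, beside 10.9, 2.25, 15.0 and 11.2% of all genes. SPP1, osteopontin (3.31 ± 0.38), TNC, tenascin-C (2.45 ± 0.35), and LTBP1, which holds latent TGFβ (1.89 ± 0.21), rose at day 38 with ITGB3 and ITGB6, and all 3 fell at day 45 (-2.17 ± 0.36, -2.34 ± 0.35 and -0.94 ± 0.21). FN1, fibronectin, rose at day 23 (1.46 ± 0.10, adjusted p = 1.84e-13) and fell at day 38 (-0.74 ± 0.09), and periostin, POSTN, rose at days 23 (2.08 ± 0.15) and 31 (1.46 ± 0.14) and fell at day 38 (-0.83 ± 0.14). The day 31 count (4) was 2 without day 23 replicate 1 or day 31 replicate 2.

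Of the collagen-binding and fibronectin-binding α chains, ITGA1 and ITGA4 rose and ITGA2 fell at day 38, and ITGA5 rose at day 45. ITGA1, a collagen receptor of mesenchymal and smooth muscle cells, had 139 and 131 counts on D16, 103 and 90 on D23, 122 and 160 on D31, 510 and 473 on D38, and 291 and 367 on D45. It rose 3.55-fold at day 38 (log2 fold change 1.83 ± 0.27, adjusted p = 5.09e-06) and was 2.44-fold over day 16 on D45, both in all 10 fits with a library left out. PELO, on the same strand, shares 2.69% of its exon bases.

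ITGA2, the collagen receptor of epithelia, had 179 and 197 counts on D16, 469 and 424 on D23, 668 and 541 on D31, 393 and 369 on D38, and 231 and 320 on D45. It went the other way from ITGA1, being highest at day 31. ITGA2 rose 2.14-fold at day 23 (1.10 ± 0.22, adjusted p = 5.72e-04) in all 10 fits, and its fall at day 38 (-0.62 ± 0.21, adjusted p = 0.042) was lost without any library of days 23, 31 or 38.

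ITGA4, a receptor for VCAM1 and fibronectin, had 91 and 130 counts on D16, 19 and 26 on D23, 15 and 12 on D31, 204 and 210 on D38, and 74 and 169 on D45. The libraries of days 23 and 31 were far below all others. ITGA4 fell 5.41-fold at day 23 (-2.43 ± 0.46, adjusted p = 3.27e-04) and rose 15.7-fold at day 38 (3.97 ± 0.50, adjusted p = 1.84e-07), both in all 10 fits. CERKL on the opposite strand covers 26.4% of its exon bases, so its level is uncertain. VCAM1 rose at day 45 (1.33 ± 0.32, adjusted p = 0.0041).

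ITGA5, the fibronectin receptor, had 481 and 217 counts on D16, 287 and 288 on D23, 206 and 184 on D31, 228 and 159 on D38, and 345 and 406 on D45. Its day 16 replicates differed more than 2-fold and enclosed the day 23 libraries. It rose 2.19-fold at day 45 (1.13 ± 0.29, adjusted p = 0.00669), a call lost without day 38 replicate 2 or day 45 replicate 1. ITGA2B, ITGA8 and ITGA9 passed over all days (adjusted p = 0.0208, 0.0405 and 0.0375) without a comparison that passed. ITGA9, a tenascin receptor, had 109 to 335 counts and shares 9.23% of its exon bases with an antisense gene, and ITGA8, a nephronectin receptor of mesenchyme, had 4 to 79. The collagen receptors ITGA10 (12 to 74 counts) and ITGA11 (23 to 61 counts) passed nowhere.

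The leukocyte integrins had few counts, with ITGAM at day 45 as the exception. ITGAM (chr16:31259967-31332892, plus strand), the α chain of the complement receptor of myeloid cells, had 2 and 0 counts on D16, 0 and 0 at days 23 and 31, 2 and 1 on D38, and 162 and 88 on D45. All its signal lay in the day 45 libraries, where the 250 counts against 3 on D38 made a ratio of 92.7 with a 95% exact counting interval of 31.4 to 453. ITGAM reached the minimum count only through the libraries in which it was high, so no p is given for it, although it is counted among the calls at day 45 against 38 and against 16. Without either day 45 library the gene missed the minimum count and was not tested.

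ITGB2, the only β chain known to pair with ITGAM, had 19 and 1 counts on D45 and at most 11 in any other library. Of the 7 leukocyte markers, CD3E was at 0 in all libraries and PTPRC, the pan-leukocyte gene CD45, had 4 and 0 counts on D45 but 64 and 17 on D16. CD68, a lysosomal gene of macrophages that other cells also express, was the most abundant, with 106 and 41 counts on D38 and 251 and 329 on D45. The 7 markers summed to 22.7 and 16.2 CPM on D38 and 54.4 and 56.7 on D45. The other leukocyte chains ITGAD, ITGAE, ITGAL and ITGB7 had at most 87 counts in a library and passed nowhere, and ITGAX had at most 7. ZNF740 on the opposite strand covers 42.3% of the exon bases of ITGB7.

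Genes on the intracellular side of adhesion were called in both directions. Of 30 adaptor and focal adhesion genes, 6 were higher and 0 lower at day 23, 1 and 1 on D31, 6 and 4 on D38, 5 and 0 on D45, and 11 and 2 from day 16 to day 45. In either direction these were 20, 6.67, 33.3, 16.7 and 43.3% of the list, beside 10.9, 2.25, 15.0, 11.2 and 24.6% of all genes, of which 12.9% were higher and 11.7% lower from day 16 to day 45. At day 45 the focal adhesion genes ZYX, zyxin (1.76 ± 0.25, adjusted p = 4.31e-06), FERMT2, kindlin-2 (1.21 ± 0.15, adjusted p = 3.17e-07), and VCL, vinculin (0.75 ± 0.13), rose together with ITGA5. DAB2, an endocytic adaptor of integrins, fell at day 31 (-0.87 ± 0.20) and day 38 (-1.42 ± 0.21, adjusted p = 3.35e-06). TLN1, talin, rose at day 23 (0.77 ± 0.13) and fell at day 38 (-0.48 ± 0.13). The day 23 count (6) was 3 without day 16 replicate 2, the day 31 count (2) was 0 or 1 without any library of days 23, 31 and 38, the day 38 count (10) was 6 without day 31 replicate 1 or day 38 replicate 1 and 4 without day 38 replicate 2, and the day 45 count (5) was 3 without day 38 replicate 2.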

How the data were processed

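The authors trimmed reads with Trimmomatic, aligned them to GRCh38.p13 with HISAT2 and counted them per gene with HTSeq; versions and the strand setting are not given in the sources used here. The deposited counts are raw and whole for 28265 symbols, and every other row of the files is blank. Groups came from the labels, 2 biological replicates a day by the study's methods. Libraries made in cAMP alone at later days were not analysed here.

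The 21014 genes that reached 5 counts in 2 or more libraries were fitted in R 4.3.3 by glmQLFit and glmQLFTest of edgeR 4.0.16 after TMM scaling, with a mean per day over all 10 libraries and 5 residual degrees of freedom. Values of p were adjusted by Benjamini-Hochberg over all genes tested, threshold 0.05. An error after a log2 fold change is the approximate SE, its size over the root of F. CPM used TMM factors. Exon lengths and overlaps came from GENCODE 44, in which all 42 genes were matched. Floors and counting intervals cover counting error only, since PCR copies were not separated. Replicates differed beyond sampling noise on every day (chi-square per degree of freedom 8.38 to 13.7).

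The members and lists were chosen with earlier results of these data known. All members were counted, 1 of them is not reported here by itself, and of each list the text gives counts and up to 3 called genes a direction, by size, with a mean of at least 5 CPM. COL4A1 and COL15A1 counts and the marker genes were given beside them, and COL4A5 and COL4A6 were added after their values were seen. The lists were other basement membrane genes, other laminin receptors, integrin adaptors, other integrin ligands, and markers of thyroid follicular, epithelial, fibroblast, cardiovascular, airway basal, goblet, endothelial, leukocyte and megakaryocyte cells. Counts were simulated for day 38 against 31 with 200 of 21014 genes changed, all drawn from genes with a mean of at least 5 CPM. There edgeR found 50% at log2 1 and 88% at log2 2 with 11 false calls. DESeq2 1.42.0, an alternative, found 52 and 92% with 23. These rates do not cover changed genes under 5 CPM. Other alternatives were library size and upper-quartile scaling, other filters, the replicate block, a fit of the 4 libraries compared, longest transcripts and leaving out each library.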

Additional observations from a re-analysis of the deposited data

How the results depend on the processing

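Of 60 calls of these genes in the 5 comparisons, 25 were lost in at least 1 of the 10 fits with a library left out. The other 35 held in each of those fits that tested the gene. Among the 35 are the calls of ITGAM at day 45 against 38 and against 16. ITGAM was not tested without either day 45 library, so its calls did not hold in all 10 fits. None of the log2 fold changes of a call turned its direction in any alternative run. The alternatives other than leaving out a library kept 50 of the 60: DESeq2 lost 1 (LAMB3 at day 31), library size alone 2 (ITGB1 at day 38 and ITGB4 at day 45 against 16), upper-quartile factors 1 (LAMA4 at day 23), filterByExpr 1 (LAMB3 at day 31), no filter 0, and the fit of the 4 libraries compared 8 (ITGB6 at days 23 and 31, LAMA2 and LAMA4 at day 23, LAMC3 at day 38, and ITGAV, ITGB4 and ITGB5 at day 45 against 16). That last fit counted 10 of these genes at day 45 against 38 in place of 6. With a library left out, the counts of these genes ran from 1 to 6 at day 31 against 23, from 10 to 18 at day 38 against 31 and from 3 to 9 at day 45 against 38. Over all genes they ran from 1350 to 2383 at day 23 against 16, from 206 to 646 at day 31 against 23, from 1764 to 3614 at day 38 against 31 and from 1166 to 2816 at day 45 against 38, beside 2296, 473, 3160 and 2353 with all libraries; the cause was not tested beyond fewer samples.

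Over all genes, the differences between replicates 1 and 2 correlated between -0.032 and 0.02 over pairs of days, so this measure showed no link between same-numbered replicates. With a replicate block, however, 2703, 678, 3472 and 2691 of all genes passed in the consecutive steps, beside 2296, 473, 3160 and 2353 without it. For the laminin, linker and integrin genes, the counts with the block were 16, 5, 18 and 7 in the consecutive steps. They were 23 from day 16 to day 45 and 33 over all days, with 0 of the 60 calls lost. Of 115 share values, 73 moved by over 1 SD of the replicates with the longest transcript in place of merged exons, and the αv and linker shares were added after seeing the data. Depth limits the genes with libraries at or under the floor of 3 counts: ITGAD, ITGAX, ITGB2, ITGAL and LAMB4, ITGAM before day 45, LAMB3 on D16 and LAMC3 on D31.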

Other observations

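The 4 airway basal markers summed to 25.2 and 15.5 CPM on D16 and 54.3 and 43.7 on D45, with KRT5 at 1 and 0 counts on D16 and 254 and 258 on D45 and KRT15 at 78 and 40 and then 20 and 23. The 4 goblet markers summed to 1.27 and 5.29 CPM on D16 and 105 and 56.6 on D45. The 8 thyroid follicular markers, with TG the most abundant, summed to 1854 and 1457 CPM on D16, 1613 and 1559 on D31, 7352 and 6594 on D38, and 9311 and 8828 on D45. TG alone had 7744 CPM on average on D45, and of the 8 markers 5 were higher and 3 lower at day 45 than at day 16, FOXE1 going from 764 to 211 CPM. NKX2-1, the gene whose GFP allele served for sorting, had 1426 and 1141 counts on D38 and 400 and 611 on D45. The part of the cells that these genes mark in the changes of LAMA3 and ITGB6 was not tested.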
